A study of Rattus norvegicus with 6 samples.

Results

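Triglyceride assembly, storage and secretion were followed in rat liver through 10 genes, Gpam, Agpat2, Lpin1, Lpin2, Dgat1, Dgat2, Plin2, Cidec, Mttp and Apob. The members were every non-control probe whose transcript accession maps to one of these symbols, which gave 1 probe per gene, 10 of 30367 probes on the array. All 10 were among the 16389 genes and unnamed features tested, and the rule that lists the members uses no measured value. The tested rats were 3 males given pregnenolone-16α-carbonitrile (PCN) by gavage at 100 mg/kg/day for 7 days, and the control rats were 3 males given the vehicle, corn oil, on the same schedule. All were Wistar Hannover rats (RCCHanTM:WIST), 4 weeks old at purchase and quarantined for 1 week, with free access to the same pelleted diet. PCN, a synthetic steroid, is the classical rodent ligand of PXR (the pregnane X receptor, encoded by Nr1i2), a nuclear receptor that senses foreign compounds. Whether the rats were fasted before the livers were taken is not given in the labels. Cy3-labelled RNA of each liver was read on 1 Agilent array, and the labels call the 3 arrays of a group biological replicates.

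The liver builds triglyceride by adding fatty acyl groups to glycerol phosphate in turn. GPAM adds the first acyl group and AGPAT2 the next, the lipins LPIN1 and LPIN2 remove the phosphate to give diacylglycerol, and DGAT1 or DGAT2 adds the last acyl group. The product is stored in cytosolic droplets coated by PLIN2 and enlarged by CIDEC, or is loaded by the transfer protein MTTP onto apolipoprotein B, encoded by Apob, and exported as very low density lipoprotein (VLDL).

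Each value below is a relative signal, the background-subtracted signal of a probe over the 75th percentile of all gene probes on that array, so that a gene can be compared between arrays but not with another gene. The 75th percentile itself lay between 488 and 627 on the PCN arrays and between 633 and 758 on the control arrays. The PCN arrays lay on 1 slide and the control arrays on another, so the effects of slide and of PCN cannot be told apart in any value here. Arrays correlated at 0.99 to 0.993 within a group and at 0.975 to 0.981 between groups. Cyp3a23-3a1, the P450 classically induced through PXR, had relative signals of 282, 289 and 345 with PCN, against 11.6, 17.6 and 17.6 in controls. All 8 hepatocyte markers were tested, and their summed relative signal was 1950 to 2450 with PCN and 2080 to 2200 in controls. Of 7 adipocyte markers, Plin1 had no matched probe, and Adipoq and Lep were not well above background on any array. Retn was well above background on 2 of 3 arrays of each group. The 3 adipocyte markers that were tested, Cfd, Fabp4 and Lpl, gave 0 calls, with a summed signal of 3.17 to 3.51 with PCN and 3.66 to 4.69 in controls. The 7 Kupffer cell markers gave 0 calls, but all 7 were lower with PCN, with log2 changes from −0.52 to −0.22 and a median of −0.39. Over all tested genes 19.9% were called (adjusted p under 0.05) and the median was −0.06. The summed signals of the Kupffer cell markers were 45.9 to 66.1 with PCN and 63.6 to 74 in controls. Of 7 stellate cell markers Lrat and Acta2 fell, and the summed signals were 69.2 to 73.1 with PCN and 66.8 to 71.2 in controls. Of 5 enterocyte markers 4 were tested (all but Vil1) and Mogat2 and Alpi fell. The other tested markers, Fabp2 and Apoa4, were higher with PCN (log2 changes of 0.72 and 0.2) and did not pass. Mogat2 entered the test only through the control arrays. The summed signals of the enterocyte markers were 144 to 187 with PCN and 114 to 200 in controls. Mogat2 and Apoa4 of that list also stand in the lists of the pathway below, as does Hnf4a, the 1 hepatocyte marker that rose. In whole liver, fewer cells of a type and less RNA per cell cannot be told apart.

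Of the 10 triglyceride genes, only Dgat2 passed the test (lower with PCN), 0 were higher, and 9 did not pass. This is 10% of the members, against 19.9% of all tested genes past the same threshold (adjusted p under 0.05), 15.5% lower and 4.37% higher. Without adjustment, 2 members (Dgat2 and Cidec) had p under 0.05, against 34.5% of all genes. In 3 members, Dgat2, Cidec and Mttp, every PCN array lay below every control array, against 26.7% of all genes in that direction and 41.4% in either. The median log2 change of the members was 0, against −0.06 over all genes, and the median size of their change, whatever its sign, was 0.14, against 0.23. For 7 of the 10 the log2 change was within 0.2 of 0. The 95% intervals of the 9 members not past the test reached down to 0.564-fold and up to 1.81-fold. The signals themselves were read well: all 120 member spots were well above background, and the 2 spots of a probe on an array differed by a median of 0.02 to 0.15 on the log2 scale, depending on the gene.

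**Figure D1:**
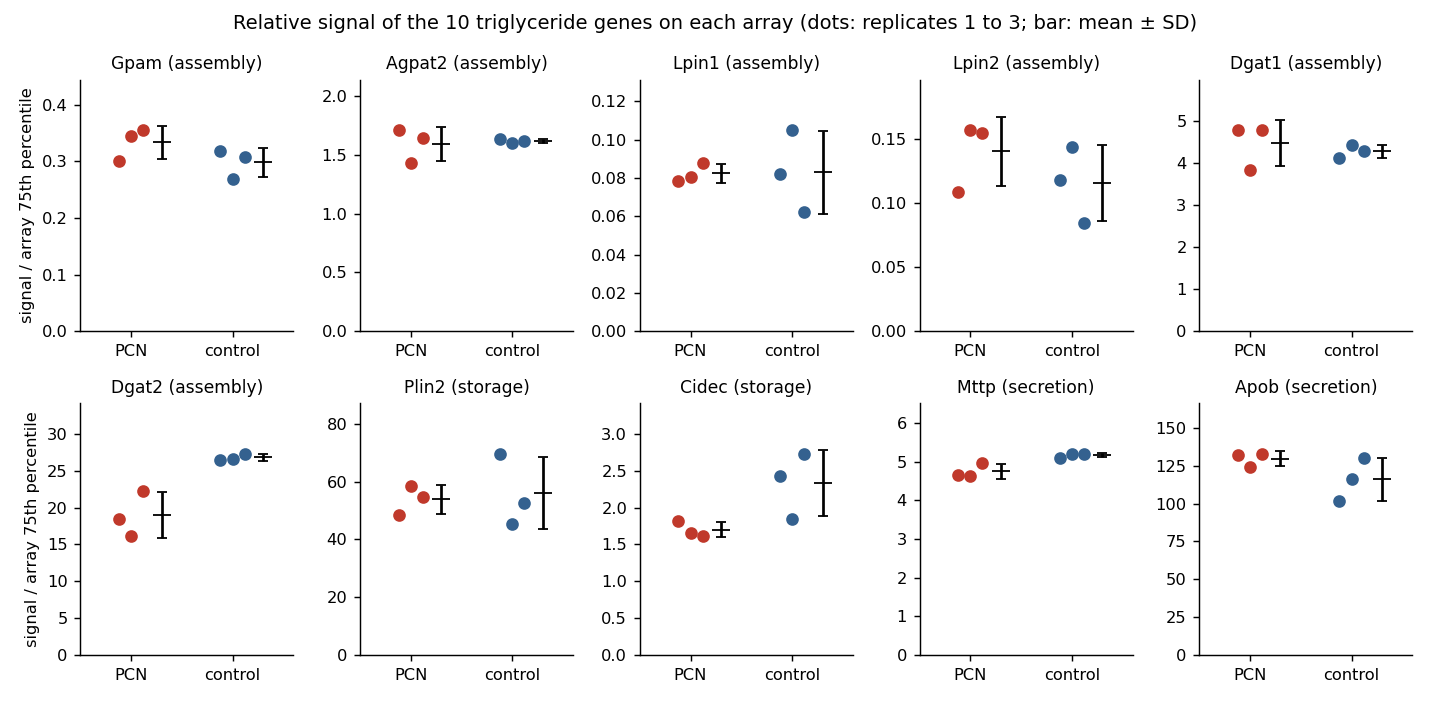
Relative signal (processed signal divided by the array 75th percentile, linear axis from 0) of each of the 10 genes on the 3 PCN arrays (red) and the 3 control arrays (blue), with mean ± SD beside the dots. Dgat2, Cidec and Mttp are the panels in which the groups do not overlap.

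The first acylation steps showed little difference. Gpam, the mitochondrial enzyme that commits glycerol phosphate to glycerolipid synthesis, had relative signals of 0.3, 0.345 and 0.355 with PCN, against 0.318, 0.269 and 0.307 in controls. The groups overlapped, with PCN replicate 1 inside the control range. The log2 change was 0.16 ± 0.12 (SE, n = 3 per group, adjusted p = 0.379), with a 95% interval of 0.921-fold to 1.36-fold. Agpat2, whose loss in humans causes congenital lipodystrophy, had 1.71, 1.43 and 1.64 with PCN, against 1.63, 1.6 and 1.62 in controls. The control arrays were almost identical and the PCN arrays lay on both sides of them. Its log2 change was −0.03 ± 0.10 (adjusted p = 0.893), with an interval of 0.826-fold to 1.17-fold.

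Neither lipin gene passed the test, and both varied between the control arrays. LPIN1 and LPIN2 are phosphatidate phosphatases, and LPIN1 also acts as a transcriptional coactivator and is induced in liver by fasting and glucocorticoids in mice. Lpin1 had relative signals of 0.0785, 0.0805 and 0.088 with PCN, against 0.0818, 0.105 and 0.062 in controls. The PCN arrays all lay inside the control range. Lpin2 had 0.109, 0.157 and 0.155 with PCN, against 0.118, 0.144 and 0.0845 in controls, again with overlap. Among the controls, both genes were highest in replicate 2 and lowest in replicate 3. The SD of log2 signal was 0.09 with PCN and 0.38 in controls for Lpin1, and 0.30 with PCN and 0.39 in controls for Lpin2. The changes were 0.02 ± 0.19 for Lpin1 and 0.29 ± 0.24 for Lpin2 (adjusted p = 0.956 and 0.425). The 95% interval of Lpin2 runs from 0.831-fold to 1.81-fold. These were also the dimmest members, with processed spot signals, before scaling, of 38.7 to 87 for Lpin1 and 51.2 to 122 for Lpin2.

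At the last step Dgat2 fell and Dgat1 did not pass the test. DGAT1 and DGAT2 catalyse the same reaction but are unrelated in sequence, and DGAT2 is the one tied to newly made fatty acids in liver. Dgat2 had relative signals of 18.5, 16.1 and 22.3 with PCN, against 26.5, 26.6 and 27.3 in controls. The PCN arrays were all lower and more scattered (mean 19 ± 3.09 with PCN and 26.8 ± 0.412 in controls, SD, n = 3 each). Dgat2 fell by 0.51 ± 0.14 on the log2 scale, to 0.702-fold (95% interval 0.561 to 0.878, adjusted p = 0.0417). This change is not large for these arrays: 24.6% of all tested genes changed by more, and 17.9% had a smaller p. The call was lost without PCN replicate 1 or 2 or without control replicate 1, 2 or 3 (adjusted p = 0.098, 0.0777, 0.104, 0.103 and 0.115), and held without PCN replicate 3 (adjusted p = 0.0219). With the array median in place of the 75th percentile, the change was −0.30 (adjusted p = 0.132). Dgat1 had 4.79, 3.84 and 4.79 with PCN, against 4.13, 4.44 and 4.3 in controls. The groups overlapped, PCN replicate 2 being the lowest of all 6 arrays and the other PCN arrays the highest. Its log2 change was 0.05 ± 0.12 (adjusted p = 0.792), with an interval of 0.85-fold to 1.27-fold.

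**Figure D2:**
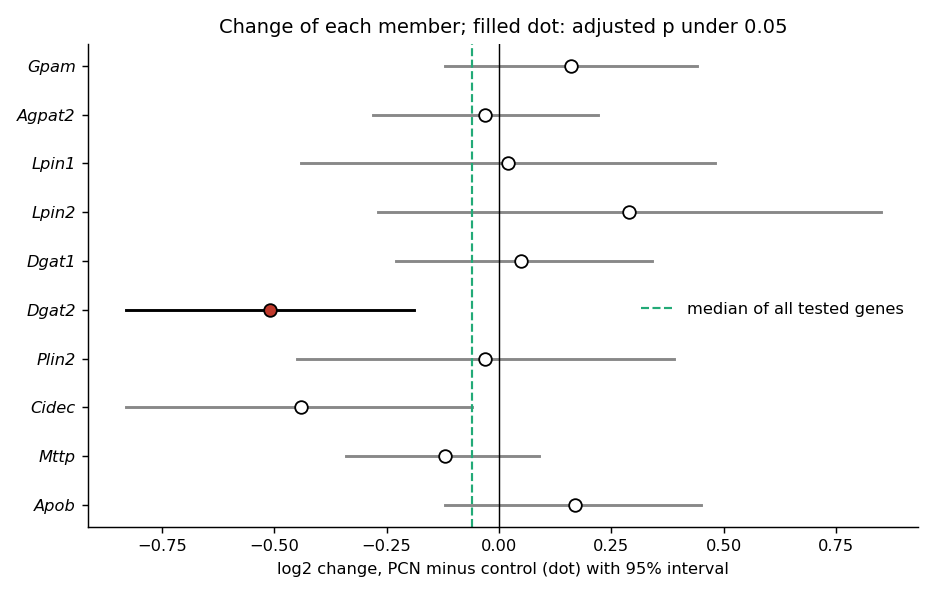
Log2 change, PCN minus control, of each of the 10 genes (dot) with its 95% interval (line) from limma over all 16389 genes. The filled dot is Dgat2, the single member with adjusted p under 0.05, and the dashed line is the median of all tested genes, −0.06.

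Among the droplet genes, Plin2 overlapped between groups and Cidec did not. PLIN2 is the main coat protein of hepatocyte lipid droplets, stabilised by the lipid it covers, and its transcript is a widely used marker of fatty liver and a PPARα target. Plin2 had relative signals of 48.6, 58.5 and 54.8 with PCN, against 69.7, 45.4 and 52.7 in controls. The control arrays spanned the whole PCN range, control replicate 1 being the highest array and control replicate 2 the lowest. The log2 change was −0.03 ± 0.18 (adjusted p = 0.92), with an interval of 0.733-fold to 1.31-fold. CIDEC (also called FSP27) joins droplets into larger ones and is induced in fatty liver in mice. Cidec had 1.82, 1.66 and 1.62 with PCN, against 2.43, 1.84 and 2.73 in controls. Every PCN array was lower, but control replicate 2 lay just above PCN replicate 1. The log2 change was −0.44 ± 0.16 (0.736-fold, 95% interval 0.564 to 0.961), which did not pass over all genes (adjusted p = 0.103). It passed without control replicate 2 (−0.60, adjusted p = 0.0348) and when arrays were scaled on the E1A spike-ins, control RNAs added to each sample (−0.69, adjusted p = 0.0174). Spike-in scaling lowered genes at large: the median of all genes became −0.31, and 96.4% of all calls were lower.

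The bases before the transcription start of these droplet genes are shown because they are the storage genes among the members, with the related Cidea beside them because it had the largest change among the droplet genes tested. They are RefSeq sequences of assembly GRCr8, 250 bases upstream of the start site, 5′ to 3′ on the strand of the gene. Plin2 is at chr5:106229019-106229268 on the minus strand, Cidec at chr4:148137116-148137365 on the minus strand, and Cidea at chr18:63164567-63164816 on the plus strand. Capitals mark the E-box CACGTG, the palindrome bound by basic helix-loop-helix factors.
Plin2: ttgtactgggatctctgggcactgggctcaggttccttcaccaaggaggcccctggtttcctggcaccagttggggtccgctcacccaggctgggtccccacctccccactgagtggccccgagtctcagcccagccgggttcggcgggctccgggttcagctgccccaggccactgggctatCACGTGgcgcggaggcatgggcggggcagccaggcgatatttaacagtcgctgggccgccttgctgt
Cidec: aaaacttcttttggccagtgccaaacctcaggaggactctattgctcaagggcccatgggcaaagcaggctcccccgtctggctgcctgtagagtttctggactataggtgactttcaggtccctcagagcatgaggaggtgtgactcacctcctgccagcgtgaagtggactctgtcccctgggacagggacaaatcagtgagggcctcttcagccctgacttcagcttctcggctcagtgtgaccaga
Cidea: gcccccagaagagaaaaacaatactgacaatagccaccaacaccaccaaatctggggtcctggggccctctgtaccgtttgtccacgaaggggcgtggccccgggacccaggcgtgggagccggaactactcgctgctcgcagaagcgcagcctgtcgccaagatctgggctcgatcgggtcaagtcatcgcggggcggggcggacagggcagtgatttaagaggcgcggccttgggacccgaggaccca
Windows from 250 bases before to 50 after the start were given for 6 of the 10 members (Gpam, Agpat2, Lpin1, Lpin2, Plin2 at 2 starts, and Cidec). They were searched on both strands for the nuclear receptor half-sites AGGTCA and AGTTCA, for pairs of these as direct repeats spaced by 3 or 4 bases (DR3, DR4) or everted repeats spaced by 6 (ER6), arrangements PXR is known to bind, for the direct repeat of AGGTCA spaced by 1 base (DR1), for the sterol element TCACNCCAC and for CACGTG. The paired arrangements contain the half-sites, so their matches overlap. In these 6 members 0 windows held a half-site, which 16.2% (AGGTCA) and 14.5% (AGTTCA) of 33465 rat windows hold. The pairs were likewise not found, and they are rare, in 0.0538% (DR1), 0.0418% (DR3), 0.0179% (DR4) and 0.00598% (ER6) of windows. The sterol element, in 1.12% of windows, was not found in a member. Plin2 alone held CACGTG, at its first start, which 6.42% of windows hold. The 250 bases were 67.2% G or C for Plin2 at the start shown and 47.2% at its other start, 56% for Cidec and 63.6% for Cidea, against a median of 51.2%.

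The secretion genes were close to control levels. MTTP loads lipid onto apolipoprotein B inside the endoplasmic reticulum and is needed for VLDL export. Mttp had relative signals of 4.67, 4.63 and 4.98 with PCN, against 5.11, 5.21 and 5.21 in controls. All PCN arrays were lower, by a small margin. The log2 change was −0.12 ± 0.09 (0.919-fold, 95% interval 0.791 to 1.07), and it did not pass the test (adjusted p = 0.39). Apob, which in rat liver is translated as a full-length and, after editing of its mRNA, a truncated protein, had 132, 124 and 133 with PCN, against 102, 116 and 130 in controls. Control replicate 3 reached into the PCN range and the other 2 control arrays lay below it. The log2 change was 0.17 ± 0.12 (adjusted p = 0.372, interval 0.921-fold to 1.37-fold). The single Apob probe cannot tell edited from unedited mRNA.

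Ratios between genes of the same or linked steps, taken within each array, are not altered by any scaling of whole arrays. In all 6 such pairs were compared, chosen after the single values were seen, each with an exact two-sided permutation test over the 6 arrays, which cannot give a p below 0.1. On the log2 scale and relative to the control mean, the ratio of Dgat2 to Dgat1 was −0.69, −0.58 and −0.43 with PCN, against 0.04, −0.06 and 0.02 in controls. The groups lay far apart for their spread (mean −0.57 ± 0.13 with PCN and 0 ± 0.05 in controls, SD, n = 3 each, exact p = 0.1, adjusted over 6 pairs 0.2). The mean corresponds to a Dgat2 to Dgat1 ratio of 0.676 times that of controls. The ratio of Mttp to Apob was −0.34, −0.26 and −0.26 with PCN, against 0.16, 0 and −0.16 in controls, also without overlap (exact p = 0.1, adjusted 0.2). The ratios of Cidec to Plin2 (mean −0.41), Lpin2 to Lpin1 (0.27) and Gpam to Agpat2 (0.19) overlapped between groups (exact p = 0.2, 0.2 and 0.3). Of the 19 alternative settings 7 left all 6 differences as they were. Under the other 12, of which 6 left out 1 array, all 6 kept their sign, that of Dgat2 to Dgat1 ranging from −0.63 to −0.50.

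**Figure D3:**
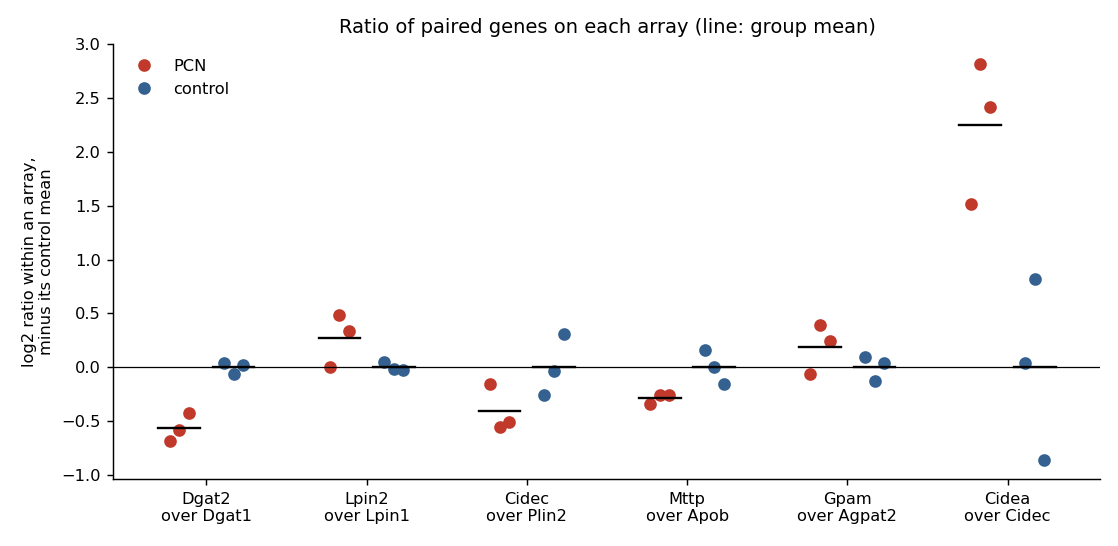
Log2 ratio of paired genes within each array, minus the mean of the control arrays, for 3 PCN arrays (red) and 3 control arrays (blue), lines at group means. The groups are apart for Dgat2 over Dgat1, Mttp over Apob and Cidea over Cidec, and overlap for the other 3 pairs. The pairs were chosen after the single values were seen. Among all single genes the groups do not overlap in 41.4%, and the share among other gene pairs was not taken.

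The rest of the pathway was read from 81 further genes in 6 lists, of which 71 had a matched probe and 69 were tested. Of these 6 rose and 8 fell, 20.3% called, against 19.9% of all genes, with a median log2 change of 0.01. The 8 falls include Mogat1 and Mogat2, which entered the test only through the control arrays. Among the 66 genes well above background on all 6 arrays 6 rose and 6 fell, 18.2% called, against 18.3% of all genes so filtered. The largest rise was that of Cidea, a droplet fusion protein related to CIDEC and best known from brown fat of mice. Cidea had relative signals of 8.77, 19.6 and 14.6 with PCN, against 4.22, 5.46 and 2.53 in controls. Every PCN array was above every control array. Cidea rose 3.51-fold (log2 1.81 ± 0.37, 95% interval 1.89-fold to 6.49-fold, adjusted p = 0.0181), and its other probe gave 1.79 ± 0.29. The call was lost without PCN replicate 2 or 3 or control replicate 1 (adjusted p = 0.0508, 0.051 and 0.054), with changes of 1.54 to 1.87. Within arrays the log2 ratio of Cidea to Cidec, relative to the control mean, was 1.52, 2.82 and 2.42 with PCN, against 0.04, 0.82 and −0.86 in controls (exact p = 0.1, adjusted 0.2), 4.76 times higher on average with PCN. Of the other droplet genes tested, Plin5, Fitm2, Bscl2, Hsd17b11, Hsd17b13 and Ldaf1, 0 passed. The droplet list thus had 1 of 7 genes called, 14.3%, against 19.9% of all genes. Plin5, a droplet protein of oxidative tissues, gave 0.25 ± 0.19 (adjusted p = 0.404). Cideb, Plin3 and Plin4 had no matched probe.

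In the supply of fatty acid and glycerol phosphate, 0 of 11 genes rose and 2 fell, 18.2% called, against 19.9% of all genes. Cd36, a fatty acid uptake receptor that PXR activation is known to induce in mouse liver, had relative signals of 0.859, 1.26 and 1.07 with PCN, against 1.95, 2.09 and 2.26 in controls. Every PCN array was below every control array. Cd36 fell by 1.00 ± 0.16 on the log2 scale, to 0.501-fold (95% interval 0.385 to 0.651, adjusted p = 0.00784), and was called under all 19 alternatives, at −1.25 to −0.79. Its other probe gave −0.75 ± 0.15 (adjusted p = 0.0152 over all probes). CD36 is also made by macrophages and endothelium, and the part of the Kupffer cell markers given above in this value was not tested. Gpd2, the mitochondrial glycerol phosphate dehydrogenase, fell by 0.90 ± 0.19 (adjusted p = 0.0201), and its other probe gave −0.99. It was called without control replicate 1 or 3, and not without any 1 of the other 4 arrays (adjusted p = 0.05 to 0.0595). The cytosolic enzyme Gpd1 (−0.07 ± 0.15), glycerol kinase Gk (0.09 ± 0.11), the fatty acid binding protein Fabp1 (0.12 ± 0.11) and the acyl-CoA synthetase Acsl1 (−0.15 ± 0.13) did not pass.

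Among the other isoforms of the assembly steps, 1 of 13 rose and 3 fell, 30.8% called, against 19.9% of all genes. Their median log2 change was −0.17, against −0.06 over all genes. Of the falls, Mogat1 and Mogat2 entered the test only through the control arrays, where they are brighter. The filter itself thus favours a fall in them, and their calls are no support for the list. Among the 11 genes well above background on all 6 arrays 1 rose and 1 fell, 18.2% called, against 18.3% of all genes so filtered. Mogat1 and Mogat2 encode monoacylglycerol acyltransferases, enzymes of the route that starts from monoacylglycerol. Mogat2, the intestinal isoform, had relative signals of 0.0232, 0.0225 and 0.0174 with PCN, against 0.0628, 0.0535 and 0.0706 in controls. These are dim signals, well above background on 2 of 3 PCN arrays. Mogat2 fell by 1.57 ± 0.16 (adjusted p = 0.00172), while normexp background correction gave −0.23 (adjusted p = 0.174). Mogat1 was below the well-above-background mark on all 3 PCN arrays, so the size of its fall is not measured well. The limma fit on the measured values (means 0.0124 with PCN and 0.0216 in controls) gave adjusted p = 0.0338. Against the lowest signal among probes well above background, the control mean was only 1.04-fold higher, a bound without a test or interval. With normexp Mogat1 turned to 0.04, and it was called in 6 of 18 alternative settings and 1 of 6 fits with an array dropped (that without PCN replicate 1). Quantile normalization, cyclic loess, the deposited table and an intensity trend also ended its call (adjusted p = 0.103, 0.0608, 0.122 and 0.0744). Agpat3 fell by 0.67 ± 0.17 (adjusted p = 0.0364) and Agpat5 rose by 0.64 ± 0.11 (adjusted p = 0.0104), both acyltransferases related to AGPAT2. Their other probes gave −0.22 and 0.24 and were not called (adjusted p = 0.166 and 0.224 over all probes). Agpat3 was called without PCN replicate 2 and in no other fit that left out 1 array (adjusted p of up to 0.107).

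**Figure D4:**
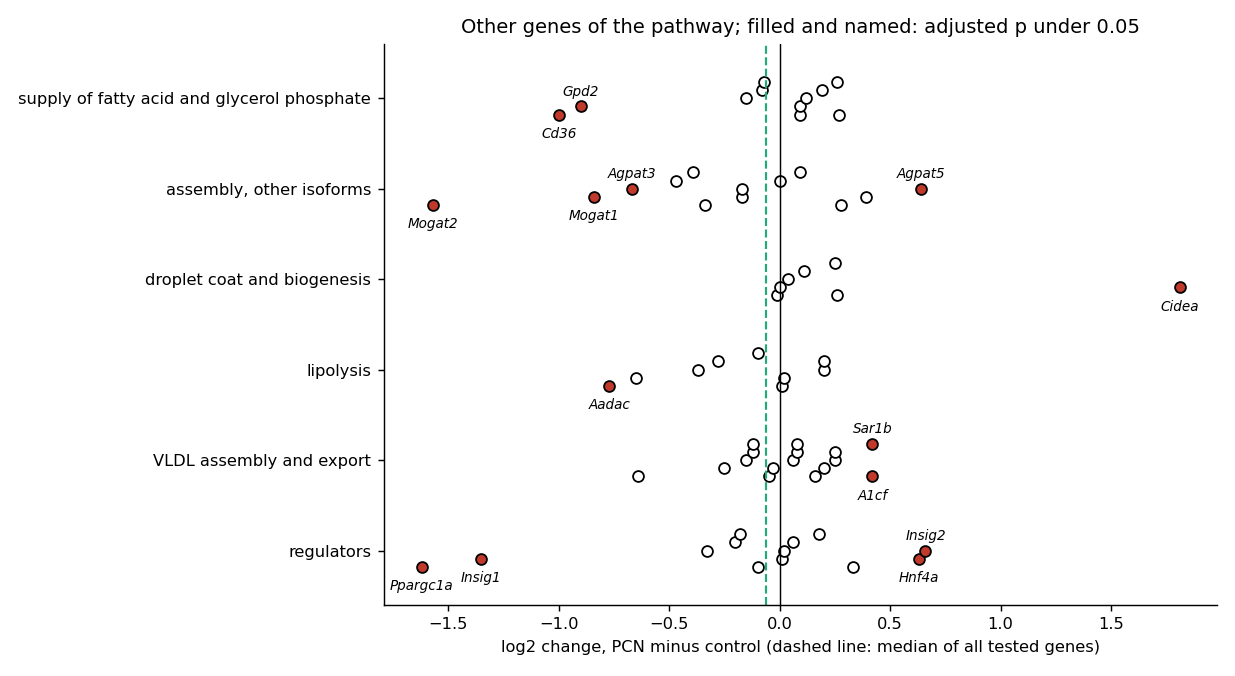
Log2 change, PCN minus control, of the 69 tested genes in 6 further lists of the pathway, 1 dot per gene. Filled, named dots passed the test (6 higher and 8 lower), and the dashed line is the median of all tested genes, −0.06. Mogat1 and Mogat2, among the 8 lower, entered the test only through the control arrays.

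Of 9 lipolysis genes 0 rose and 1 fell, 11.1% called, against 19.9% of all genes. The fall was that of Aadac, a microsomal lipid hydrolase, at −0.77 ± 0.16 (adjusted p = 0.0175). Dropping control replicate 1 or 3 ended that call (adjusted p = 0.0585 and 0.0568). Pnpla2, which encodes the rate-limiting triglyceride lipase ATGL, had relative signals of 2.01, 2.09 and 1.69 with PCN, against 3, 3.13 and 1.62 in controls. Control replicate 3 was the lowest of all 6 arrays, and the change of −0.37 ± 0.26 did not pass (adjusted p = 0.374). Without that array Pnpla2 gave −0.67 and passed (adjusted p = 0.0365). Pnpla3 had no matched probe.

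Of 16 genes of VLDL assembly and export 2 rose and 0 fell, 12.5% called, against 19.9% of all genes (4.37% higher and 15.5% lower). A1cf, the cofactor of the enzyme that edits Apob mRNA, rose by 0.42 ± 0.12 (adjusted p = 0.046), and Sar1b, a GTPase of the vesicles that carry lipoproteins out of the endoplasmic reticulum, by 0.42 ± 0.10 (adjusted p = 0.0327). When arrays were dropped 1 at a time, A1cf kept its call only without PCN replicate 2, and Sar1b in 0 of 6 fits (adjusted p of up to 0.142 and 0.109). The editing enzyme Apobec1 itself gave −0.25 ± 0.16 (adjusted p = 0.321), the VLDL lipidation factor Tm6sf2 0.25 ± 0.12 (adjusted p = 0.192) and Apoc3, an inhibitor of triglyceride clearance, −0.12 ± 0.16 (adjusted p = 0.634). Apoe, Apoc1, Apoc2 and Apoa4 lay between 0.06 and 0.25, and 0 of them passed.

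Of 13 regulators 2 rose and 2 fell, 30.8% called, against 19.9% of all genes. Insig2, which holds the sterol regulatory factors in the endoplasmic reticulum, had relative signals of 30.7, 31 and 33.2 with PCN, against 22.1, 17.9 and 20.2 in controls. Insig2 rose by 0.66 ± 0.11 (adjusted p = 0.01), with the call held in all 6 fits with 1 array left out, while its relative Insig1 fell by 1.35 ± 0.34 (adjusted p = 0.035). Hnf4a, a factor known to drive Mttp and Apob transcription, rose by 0.63 ± 0.13 (adjusted p = 0.016), and the coactivator Ppargc1a fell by 1.62 ± 0.41 (adjusted p = 0.0366). Insig1 was not called in 5 of these fits (all but that without PCN replicate 3), Ppargc1a in 4 and Hnf4a without control replicate 3 (adjusted p of up to 0.0931, 0.0909 and 0.0565). Ppargc1a is dim, at 0.0281 to 0.0352 with PCN and 0.053 to 0.181 in controls, and normexp gave it −0.48 (adjusted p = 0.176). Its call was also lost with quantile normalization, cyclic loess and the deposited table (adjusted p = 0.0786, 0.0632 and 0.0557). Mlxipl, the carbohydrate response factor (−0.20 ± 0.15), and Pparg (0.33 ± 0.26), which drives Cidea and Cidec in fatty liver of mice, did not pass (adjusted p = 0.415 and 0.421). Srebf1 had no matched probe.

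**Figure D5:**
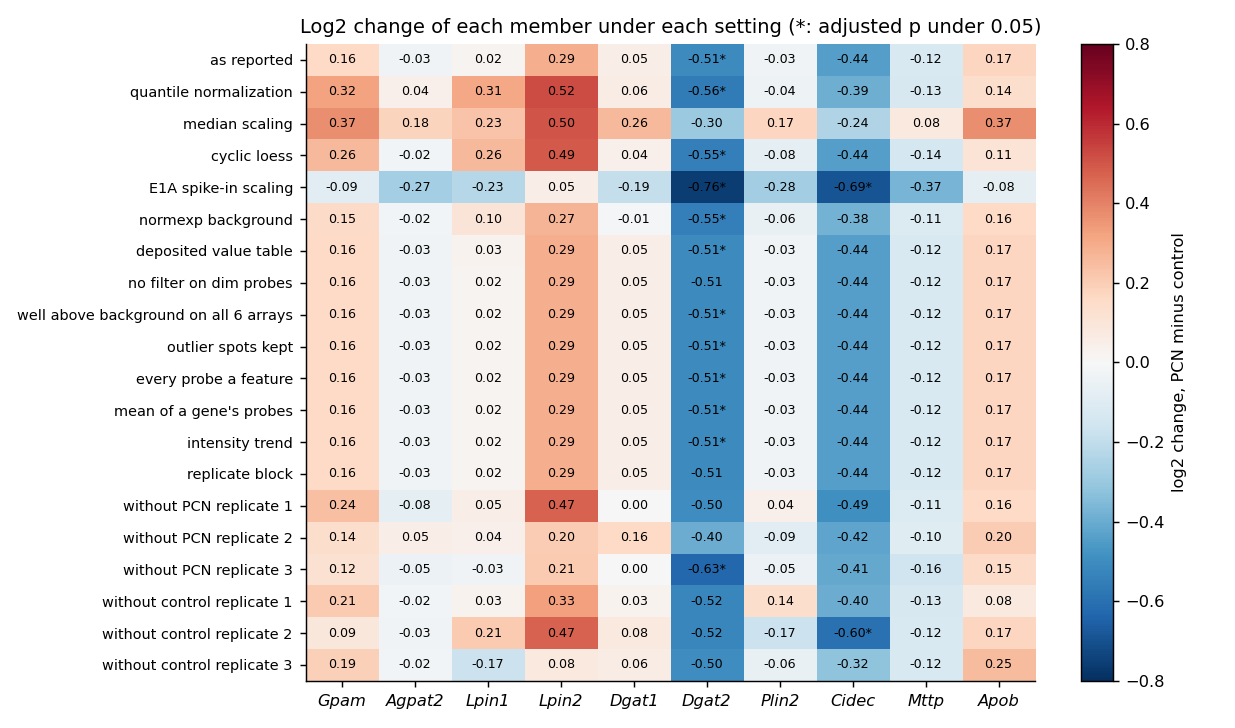
Log2 change, PCN minus control, of the 10 genes (columns) as reported and under 19 alternative settings (rows), with an asterisk at adjusted p under 0.05. Dgat2 and Cidec are negative in every row, while Agpat2, Lpin1, Dgat1, Plin2, Gpam, Mttp and Apob change sign in at least 1 row.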

How the data were processed

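The intensity values are the deposited scanner outputs of 6 arrays, made with Agilent Feature Extraction 10.7.3.1 under its 1-colour protocol and background-subtracted within the array, per the file headers. Deposited quality marks of other kinds (well above background, saturated, outlier) are also set by that software, per the file headers. A deposited table from the authors gives a linear ratio for each spot. Its values, given to 2 decimals, followed the processed signal over the array 75th percentile across the brighter spots (correlation of logs 0.99987 to 0.99992). A correlation does not show the scaling, and the dimmer spots were not compared. With the deposited values the median log2 change of all genes was −0.06, as with the 75th percentile. Their medians were 0.1 to 0.11 on PCN and 0.12 on control arrays, with no centring of genes seen. Zeros made up 0% of spots on PCN replicate 3 and 12.1% to 20.4% on the other arrays. Files name build rn4 and the gene table assembly GRCr8, so no gene coordinates are given beyond the RefSeq windows.

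Outlier spots were dropped, the remaining spots of a probe averaged on the log2 scale, and the 75th percentile of non-control spots subtracted. Probes well above background on all 3 arrays of a group were tested (18329 probes). The brightest probe stood for a gene, and 18004 probes matched 1 symbol. limma 3.58.1 in R 4.3.3 (lmFit, eBayes) compared 3 PCN with 3 control arrays, two-sided, with Benjamini-Hochberg adjustment over 16389 genes. The fit was tested on simulated data. With 200 of 18329 probes changed, 62% of those changed by 1 and 91% of those changed by 2 on the log2 scale were recovered. The number of arrays limits the precision. Each p-value sets a change against the spread within groups, which eBayes steadies with the spread of all genes. With 1 array per rat, that spread holds differences of rats and of arrays together. The scanner files hold no mean spot signal, so normexp (offset 50) used the median. Protein sequences were not used here.

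The members and lists were chosen with earlier results of these data known. Named were all members, every gene of the 6 lists past the test, and Mlxipl, Pparg, Cd36, Plin5, Pnpla2, Apobec1, Tm6sf2, Apoc3, Srebf1, Pnpla3 and Cideb whatever their values. Gene pairs for ratios, and other genes, were chosen after their values were seen. Same-numbered PCN and control arrays did not deviate together, so replicate numbers were not used as pairs.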

Additional observations from a re-analysis of the deposited data

How the results depend on the processing

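Each member was refitted under 19 alternative settings. Dgat2 stayed lower in all 19 and was called in 11. It was not called with median scaling (−0.30), with no filter on dim probes (−0.51), with the replicate block (−0.51), or in 5 of 6 fits with 1 array left out (−0.52 to −0.40). The number of members called was 0 with median scaling, no filter and the replicate block, 2 with spike-in scaling (Dgat2 and Cidec), and 0 to 1 with 1 array left out. Signs turned with spike-in scaling for Gpam (−0.09), Lpin1 (−0.23), Dgat1 (−0.19) and Apob (−0.08), and with median scaling for Agpat2 (0.18), Plin2 (0.17), Mttp (0.08), Mlxipl (0.01) and Apoc3 (0.08). They also turned with quantile normalization for Agpat2 (0.04), and with normexp for Dgat1 (−0.01) and Mogat1 (0.04). Leaving out PCN replicate 1 turned Plin2 (0.04), PCN replicate 2 Agpat2 (0.05) and Apoc3 (0.04), PCN replicate 3 Lpin1 (−0.03), control replicate 1 Plin2 (0.14) and control replicate 3 Lpin1 (−0.17). With 1 array left out Lpin1 ranged up to 0.21 and Apoc3 down to −0.26. The turned values listed here were not called.

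Over all genes 3263 were called, 716 higher and 2547 lower (78.1% lower). Quantile normalization gave 1426 higher (55.4% lower), median scaling 2686 (41% lower), cyclic loess 1093 (65% lower), normexp 1432 lower (64.4%), and spike-in scaling 169 higher and 4579 lower (96.4%). Without the filter 1967 were called (283 higher, 1684 lower), and with the replicate block 2067 (306 higher). Without 1 array the calls numbered 2024 to 2586, with 291 to 540 higher and 1716 to 2133 lower. The median change of all genes was 0.14 with median and −0.31 with spike-in scaling. In the 6 further lists, 6 were higher and 8 lower as reported. With median scaling 11 were higher, with spike-in scaling 1 higher and 13 lower, with normexp 5 lower, without the filter 3 higher and 2 lower, with the replicate block 3 higher and 4 lower, and without 1 array 3 to 5 higher and 4 to 5 lower. Of the 14 genes called in these lists, Cd36 was called in 19 of 19 settings, Agpat5 and Insig2 in 18, Cidea and Aadac in 16, Hnf4a in 15, Gpd2 in 13, Insig1 in 12, Agpat3 in 11, and A1cf, Sar1b and Ppargc1a in 10. Of 18 settings Mogat2 was called in 17 and Mogat1 in 6. With spike-in scaling the rises of A1cf and Sar1b came to 0.18 each (adjusted p = 0.341 and 0.376). The replicate block is not a pairing of rats: same-numbered arrays had deviations correlated at −0.102, −0.0255 and −0.0517. The cause of these shifts was not tested. Slide could not be a term, since each slide held 1 group.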
